A study of Mus musculus with 6 samples.

Results

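The proteasome is described here through 48 mouse genes out of 18193 measured genes, taken as those whose symbol is Psma, Psmb, Psmc, Psmd, Psme or Psmg directly followed by a digit and which had a probe set assigned to that symbol alone. Of the 48, 46 code for subunits, activators or assembly factors, and 2 share only the name: Psmc3ip, a meiotic recombination factor, and Psme3ip1, a protein that binds an activator. All 48 passed the filter on dim probe sets and were tested. RNA came from livers of C57BL/6 mice given, by vein, an AAV8 vector that carried either Nfkbiz, the gene of the nuclear IκB protein IκBζ (3 arrays), or luciferase as the control (3 arrays). Every animal, controls included, received the vector 4 weeks before a diet called CDAHFD, which is low in choline and high in fat and serves as a model of nonalcoholic fatty liver disease, and then ate it for 4 weeks. There was no group on ordinary chow and none without a vector. Nothing in the labels gives the age or sex of the mice or the promoter that drove the vectors. Expression was read on Affymetrix 3′ arrays from 100 ng of RNA as MAS5 intensities, a linear brightness scale with nearly the same trimmed mean on each array. Each difference below is the mean log2 intensity of the Nfkbiz livers minus that of the luciferase livers.

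The proteasome is the barrel-shaped protease that degrades ubiquitin-tagged proteins. Its 20S core has outer rings of alpha subunits (Psma genes) that gate the entrance and inner rings of beta subunits (Psmb genes), of which Psmb5, Psmb6 and Psmb7 carry the chymotrypsin-like, caspase-like and trypsin-like activities. The 19S particle (Psmc ATPases and most Psmd genes) binds ubiquitin, removes it and unfolds the substrate, and the Psme genes code for alternative caps. Cells of the immune system, and other cells under interferon, build an immunoproteasome in which Psmb8 replaces Psmb5, Psmb9 replaces Psmb6 and Psmb10 replaces Psmb7, which changes the peptides made for antigen presentation. In liver tissue, whole-tissue RNA of these genes comes from hepatocytes and from resident and infiltrating leukocytes together, and fewer cells of a type cannot be told apart from less RNA per cell.

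The label of the vector was borne out by 1 of the 3 Nfkbiz probe sets (1448728_a_at), which read 4424, 4073 and 2006 in the Nfkbiz livers, against 221.4, 229.5 and 179.7 in the luciferase livers. The other 2 had differences of 0.30 and -0.89 that did not pass the test. The probe set at 0.30 (1417483_at) had the highest mean log2 intensity, so it stands for Nfkbiz in the fit over genes (limma adjusted p = 0.554). The probe set 1448728_a_at does not enter that fit. Hepatocyte markers were bright on all arrays, and their summed intensity ran from 246157 to 295834 in the Nfkbiz livers and from 252951 to 299739 in the luciferase livers. Luciferase array 3 stood apart in one respect that touches these genes. Of 1163 genes with at least 2 probe sets of mean intensity 1000 or more, the log2 difference between the brightest 2 lay over 0.5 from its median over the arrays in 19.3% on that array, and in between 0.516% and 1.29% on the other arrays. Values without it are given beside some of the named proteasome genes that it moved.

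No proteasome gene passed the test in the Nfkbiz livers, and most had small positive differences. Of the 46 genes, 0 had an adjusted p below 0.05 (limma, 13312 genes), where 0.225% of all tested genes did, 0.0676% higher and 0.158% lower. The smallest adjusted p was 0.219, for Psma7. At an unadjusted p below 0.05, 7 were higher and 0 lower (15.2% and 0% of the 46), beside 5.03% higher and 7.00% lower among all tested genes. A positive difference was found for 38 of the 46, beside 47.8% of all tested genes, with a median of 0.15 over the 46 and -0.02 over all tested genes. The groups did not overlap for 12 of the 46 genes (26.1%), with the Nfkbiz arrays above in all 12, beside 18.0% of all tested genes, where they were above in 1065 and below in 1333. Subunits of 1 complex are not independent of each other, so these counts are a description. The 95% interval lay inside a log2 difference of -1 to 1 for 45 of the 46 genes, Psmb11 being the exception. It did so for 9739 of all 13312 tested genes. The median SE was 0.14 over the 46 and 0.20 over all tested genes.

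**Figure D1:**
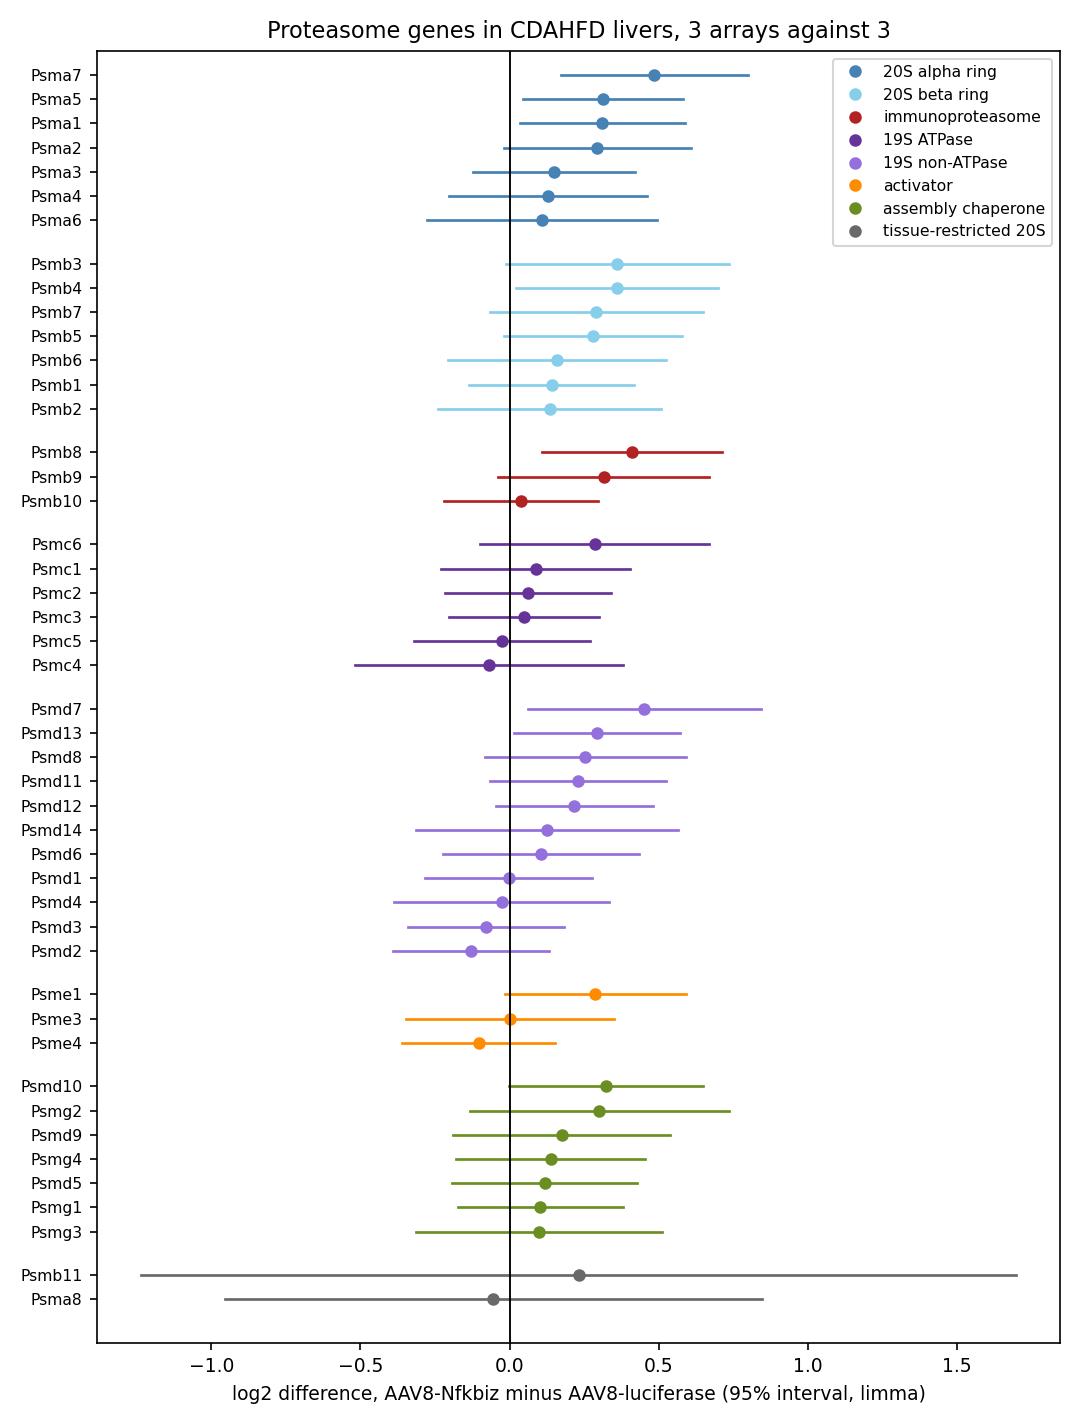
Log2 difference (x axis, AAV8-Nfkbiz minus AAV8-luciferase, 3 arrays each) with limma's 95% interval for each of 46 proteasome genes, grouped and coloured by the part of the complex. All 14 constitutive 20S core genes lie right of 0, with a median of 0.29, while the 17 genes of the 19S particle lie on both sides, with a median of 0.09, and no gene has an adjusted p below 0.05.

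The 3 immunoproteasome subunits had positive differences of 0.41, 0.32 and 0.04, of which 0 passed, and their 95% intervals overlapped. Psmb8, the chymotrypsin-like subunit induced by interferon, read 2738, 2286 and 2817 in the Nfkbiz livers, against 1994, 2127 and 1772 in the luciferase livers. The groups did not overlap, and it stood 0.41 ± 0.14 higher on the log2 scale (SE, limma unadjusted p = 0.0128, adjusted p = 0.277), a 1.33-fold higher intensity in the Nfkbiz livers. Without luciferase array 3 Psmb8 stood 0.34 higher. Psmb9, its caspase-site counterpart, read 1901, 1684 and 2174 in the Nfkbiz livers, against 1425, 1366 and 1856 in the luciferase livers. Here luciferase array 3 was above Nfkbiz array 2, and the difference was 0.32 ± 0.16 (limma adjusted p = 0.462), or 0.45 without that luciferase array. Psmb10, the third immunoproteasome subunit, read 2894, 2997 and 3020 in the Nfkbiz livers, against 2933, 2693 and 3053 in the luciferase livers. Its groups overlapped throughout, with a difference of 0.04 (95% interval -0.22 to 0.30), which was -0.01 without luciferase array 2 and 0.08 without luciferase array 3.

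The constitutive catalytic subunits that these replace had positive differences of 0.16 to 0.29. Psmb5 read 5231, 6940 and 5581 in the Nfkbiz livers, against 4904, 4674 and 4938 in the luciferase livers. The groups did not overlap, Nfkbiz array 2 was the highest, and the difference was 0.28 ± 0.13 (SE, limma adjusted p = 0.441), or 0.16 without that array. Psmb6 read 3868, 5769 and 4228 in the Nfkbiz livers, against 4118, 3639 and 4517 in the luciferase livers. The positive difference of 0.16 ± 0.16 (SE) rested on Nfkbiz array 2, without which it was -0.01. Psmb7 read 6888, 7914 and 7047 in the Nfkbiz livers, against 6584, 6867 and 4641 in the luciferase livers. The groups did not overlap, and the difference of 0.29 ± 0.16 (SE, limma adjusted p = 0.508) was 0.11 without the low luciferase array 3.

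Set against its constitutive partner on the same array, no immunoproteasome subunit differed beyond the spread between arrays. The within-array log2 difference of Psmb8 and Psmb5 was 0.13 ± 0.24 (SE) higher in the Nfkbiz livers, that of Psmb9 and Psmb6 0.16 ± 0.27 higher, and for Psmb10 and Psmb7 the value was -0.25 ± 0.23. The exact two-sided permutation p-values over the 6 arrays were 0.6, 0.6 and 0.4, and 0.6 for each of the 3 pairs after adjustment over them, where 3 arrays against 3 cannot give a p below 0.1. The Nfkbiz arrays did not behave alike in this measure. Relative to the luciferase mean, the Psmb8 to Psmb5 log2 difference was 0.37, -0.30 and 0.32 on Nfkbiz arrays 1, 2 and 3, against 0.01, 0.17 and -0.17 on the luciferase arrays. The Psmb9 to Psmb6 log2 difference was 0.38, -0.37 and 0.45 on the Nfkbiz arrays, against -0.12, -0.004 and 0.13 on the luciferase arrays. In both pairs Nfkbiz array 2 was the lowest of all 6 and Nfkbiz arrays 1 and 3 were the highest. Without that array the differences were 0.34 and 0.42. The Psmb8 to Psmb5 value also depended on the probe set, since it was -0.21 when the probe sets of a gene were averaged and -0.56 when the most variable one was read. The Psmb10 to Psmb7 log2 difference was -0.21, -0.36 and -0.18 on the Nfkbiz arrays, against -0.13, -0.31 and 0.44 on the luciferase arrays. Its negative value rested on luciferase array 3, without which it was -0.03.

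**Figure D2:**
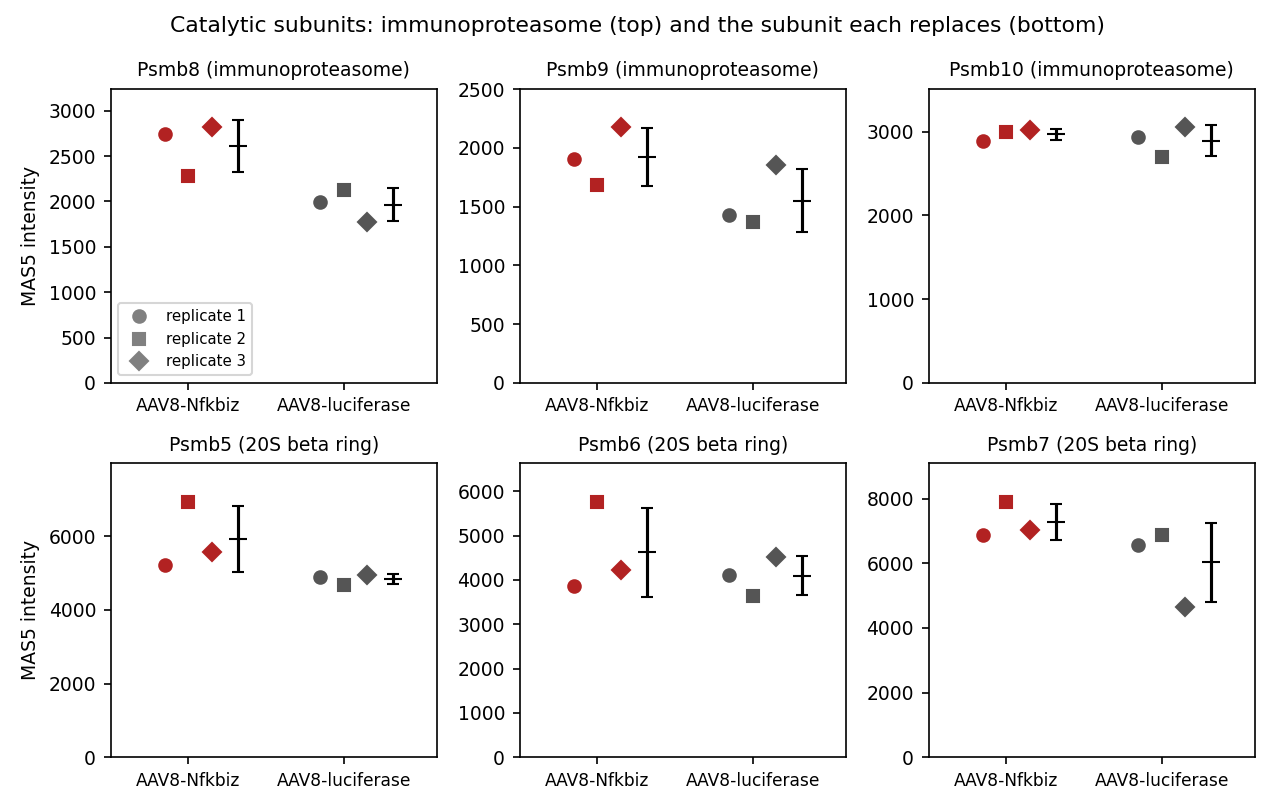
MAS5 intensity (y axis, from 0) of the 3 immunoproteasome genes, top row, and of the constitutive gene each replaces, bottom row, on every array, with AAV8-Nfkbiz in red at the left and AAV8-luciferase in grey at the right. Symbols mark replicates 1 to 3, the bar beside them is the mean ± SD (n = 3), and replicate 2 of the Nfkbiz group is the highest array for Psmb5, Psmb6 and Psmb7 and the lowest of its group for Psmb8 and Psmb9.

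Psmb8 and Psmb9 are neighbours in the major histocompatibility complex, whereas Psmb10 (chromosome 8) and Psmb5 (chromosome 14) lie elsewhere. On GRCm38.p6 Psmb9 spans chr17:34182030-34187330 and Psmb8 chr17:34198195-34201454, with Tap1, a subunit of the transporter that carries the peptides into the endoplasmic reticulum, between them. Tap1 read 716.3, 556.4 and 743.4 in the Nfkbiz livers, against 507.3, 500.0 and 622.1 in the luciferase livers (0.30 ± 0.17 SE, limma adjusted p = 0.515). Tap2, the other transporter subunit, lies beyond Psmb8 at chr17:34204479-34216321 and read 664.5, 420.8 and 720.4 in the Nfkbiz livers, against 755.6, 617.7 and 660.1 in the luciferase livers. Its groups overlapped, with a difference of -0.20 ± 0.21 (SE, limma adjusted p = 0.746), opposite in sign to Tap1, Psmb8 and Psmb9. As for Psmb8 and Psmb9, array 2 was the lowest of the Nfkbiz group for Tap1 and for Tap2.

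Promoter windows are printed for Psmb8 and Psmb9, for Psmb5 and for Psma7, the proteasome gene with the smallest p. Each runs from 250 bases before to 50 after the gene's start in RefSeq (GRCm38.p6), on the gene's strand, for Psma7 at chr2:180042415-180042714 (- strand), for Psmb5 at chr14:54617946-54618245 (- strand), for Psmb8 at chr17:34197945-34198244 (+ strand) and for Psmb9 at chr17:34187281-34187580 (- strand). Capitals mark matches, on either strand, to the antioxidant response element core TGANNNNGC (the site type of the proteasome regulators Nfe2l1 and Nfe2l2), the NF-Y box CCAAT, the gamma-activated site core TTCNNNGAA of STAT factors, the interferon-stimulated response element core (GAAA, then 2 free bases, then GAAA) and the NF-κB consensus.
Psma7: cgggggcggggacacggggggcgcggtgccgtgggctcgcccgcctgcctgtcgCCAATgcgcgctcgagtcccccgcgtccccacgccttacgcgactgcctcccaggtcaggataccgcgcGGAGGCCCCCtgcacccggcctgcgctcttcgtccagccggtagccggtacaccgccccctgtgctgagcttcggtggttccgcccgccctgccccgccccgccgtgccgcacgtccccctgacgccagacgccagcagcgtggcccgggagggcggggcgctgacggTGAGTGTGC
Psmb5: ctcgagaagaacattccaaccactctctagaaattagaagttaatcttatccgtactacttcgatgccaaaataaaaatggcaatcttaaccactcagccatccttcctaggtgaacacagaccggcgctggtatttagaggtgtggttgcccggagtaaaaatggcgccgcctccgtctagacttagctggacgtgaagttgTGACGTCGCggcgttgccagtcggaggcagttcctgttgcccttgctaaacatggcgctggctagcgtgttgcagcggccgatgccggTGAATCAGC
Psmb8: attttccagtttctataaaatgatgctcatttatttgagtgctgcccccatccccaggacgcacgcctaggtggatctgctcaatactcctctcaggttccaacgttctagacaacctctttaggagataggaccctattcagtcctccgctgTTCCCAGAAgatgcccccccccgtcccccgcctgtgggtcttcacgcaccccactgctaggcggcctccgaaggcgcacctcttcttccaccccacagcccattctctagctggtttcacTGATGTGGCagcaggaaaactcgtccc
Psmb9: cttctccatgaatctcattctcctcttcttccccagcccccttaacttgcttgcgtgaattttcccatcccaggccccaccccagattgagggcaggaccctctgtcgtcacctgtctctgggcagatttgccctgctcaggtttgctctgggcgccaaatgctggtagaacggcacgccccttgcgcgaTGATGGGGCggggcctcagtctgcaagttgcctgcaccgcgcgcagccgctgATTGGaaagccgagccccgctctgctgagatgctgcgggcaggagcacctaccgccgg
A gamma-activated site core began 97 bases before the start of Psmb8. An NF-κB consensus match began 127 bases before the start of Psma7, and no interferon-stimulated core was found in these 4 windows. No marked matches overlapped. Windows were found for 40 of the 48 genes, not for Psma8, Psmb1, Psmb2, Psmb7, Psmc3, Psmd3, Psmd7 and Psmg2. The antioxidant core was present in 24 of the 40 (60%), beside 45.0% of 27025 genes with a window, and the NF-Y box in 16 of 40 (40%), beside 41.1%. The gamma-activated core was present in 3 (7.5%, beside 9.55%), the interferon-stimulated core in 5 (12.5%, beside 3.99%) and the NF-κB consensus in 6 (15%, beside 9.55%). A match describes the letters only.

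The constitutive 20S core had positive differences in 14 of 14 genes, beside 47.8% of all tested genes. The median was 0.29, with a range from 0.11 for Psma6 to 0.49 for Psma7, and 0 of 14 passed the test. At an unadjusted p below 0.05, Psma7, Psma5, Psma1 and Psmb4 were higher (28.6% of the 14), beside 5.03% of all tested genes. Psma7 read 5135, 6703 and 4928 in the Nfkbiz livers, against 3739, 3992 and 4136 in the luciferase livers. Every Nfkbiz array was above every luciferase array, with 0.49 ± 0.14 on the log2 scale (SE, limma adjusted p = 0.219), 1.40-fold, and a second probe set of the gene gave 0.57 ± 0.15.

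Psma5 and Psma1, further alpha-ring subunits, also did not overlap between the groups. Psma5 read 6753, 7449 and 6406 in the Nfkbiz livers, against 5727, 5753 and 5101 in the luciferase livers (0.31 ± 0.12 SE, limma adjusted p = 0.341). Psma1 read 5442, 6794 and 5732 in the Nfkbiz livers, against 4693, 4864 and 4866 in the luciferase livers (0.31 ± 0.12 SE, limma adjusted p = 0.355). Its luciferase values were close together, with an SD of 99.0, and the spread was on the Nfkbiz side, with an SD of 711.9. Of its other probe sets, 2 dim ones passed the filter and had negative differences, the lowest -0.70. Psma2 read 4448, 5424 and 4931 in the Nfkbiz livers, against 4193, 4499 and 3427 in the luciferase livers, and the groups overlapped by 1 array. Its difference was 0.29 ± 0.14 (SE), or 0.18 without luciferase array 3. The remaining alpha subunits Psma3, Psma4 and Psma6 had differences of 0.15, 0.13 and 0.11. Without luciferase array 3 Psma4 was at -0.004 and Psma6 at 0.28, and without Nfkbiz array 2 Psma6 was at -0.02. Psma3 was the only one of these whose groups did not overlap.

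Among the structural beta subunits Psmb4 and Psmb3 had the largest differences, 0.36 each. Psmb4 read 9879, 12331 and 9138 in the Nfkbiz livers, against 7915, 9344 and 7138 in the luciferase livers (limma adjusted p = 0.386). Psmb3 read 3378, 4919 and 3298 in the Nfkbiz livers, against 2771, 3299 and 2827 in the luciferase livers (limma adjusted p = 0.432). In both genes luciferase array 2 reached into the Nfkbiz range, and Nfkbiz array 2 was the highest. Without that Nfkbiz array the differences were 0.23 and 0.17, and without luciferase array 3 they were 0.27 and 0.33. A second bright probe set gave 0.34 ± 0.17 for Psmb4 (1438984_x_at) and 0.06 ± 0.19 for Psmb3 (1460198_a_at, SE), with overlapping groups in both. Psmb1 and Psmb2 had differences of 0.14 and 0.13, with overlapping groups. Psmb2 was at 0.03 without luciferase array 3 and at -0.03 without Nfkbiz array 2.

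The 19S particle had a smaller median difference, 0.09 over 17 genes, with 11 positive and 6 negative, and 0 of 17 passed. Of all tested genes 47.8% had a positive difference. Its ATPase ring, the motor that unfolds substrates, ranged from -0.07 for Psmc4 to 0.29 for Psmc6, with a median of 0.05 over 6 genes and 0 at an unadjusted p below 0.05. Both ends of that range rested on luciferase array 3, without which Psmc4 was at 0.17 and Psmc6 at 0.08. Psmc3 was close to equal, at 4516, 4936 and 4592 in the Nfkbiz livers, against 4506, 4368 and 4705 in the luciferase livers. In the lid, 2 of the genes were higher at an unadjusted p below 0.05, beside 5.03% of all tested genes. Psmd7, the scaffold partner of the deubiquitinase, read 2569, 2784 and 2482 in the Nfkbiz livers, against 2136, 2274 and 1428 in the luciferase livers. The groups did not overlap and the difference was 0.45 ± 0.18 (SE, limma adjusted p = 0.344), or 0.24 without the low luciferase array 3. Psmd13, another lid subunit, read 2034, 1894 and 2160 in the Nfkbiz livers, against 1722, 1719 and 1527 in the luciferase livers (0.29 ± 0.12 SE, limma adjusted p = 0.386), also without overlap. Its probe sets ran from -0.57 to 0.29, the negative ones dim. The second brightest (1437220_x_at) gave 0.17 with overlapping groups.

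Further lid subunits had positive differences that did not pass, at 0.25 for Psmd8, 0.23 for Psmd11 and 0.22 for Psmd12, whose groups did not overlap. Without luciferase array 3 Psmd8 was at 0.13 and Psmd11 at 0.14. The deubiquitinase Psmd14 had a difference of 0.13 ± 0.20 (SE) and the ubiquitin receptor Psmd4 of -0.03 ± 0.16, while a second bright probe set of Psmd4 (1425859_a_at) gave 0.36 ± 0.19 with overlapping groups. The base scaffolds were at -0.003 for Psmd1 and -0.13 for Psmd2, and the lid subunit Psmd3 was at -0.08. Without luciferase array 3 Psmd4 was at -0.07 and Psmd1 at -0.08. Without Nfkbiz array 2 Psmd14 was at -0.09 and Psmd4 at -0.21. Psmd2 read 3612, 3399 and 3926 in the Nfkbiz livers, against 4177, 3981 and 3795 in the luciferase livers, the lowest difference of any proteasome subunit here, with overlapping groups.

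The caps and assembly factors did not pass either. Psme1, a subunit of the interferon-inducible activator PA28, read 6457, 7279 and 6190 in the Nfkbiz livers, against 5256, 6305 and 4824 in the luciferase livers (0.29 ± 0.14 SE, limma adjusted p = 0.44). Without luciferase array 3 Psme1 was at 0.20. Its partner Psme2 shares its probe set with a second symbol and is not analysed here. The nuclear activator subunit Psme3 had a difference of 0.00 (95% interval -0.35 to 0.35) and Psme4, the large single-chain activator, of -0.10 ± 0.12 (SE). All 7 assembly chaperones had positive differences, beside 47.8% of all tested genes. They ran from 0.10 for Psmg3 to 0.32 for Psmd10, with a median of 0.14 and 0 passing. Without luciferase array 3 Psmg3 was at 0.30. Psmd10, also known as gankyrin, read 671.9, 776.5 and 742.2 in the Nfkbiz livers, against 586.8, 636.2 and 529.6 in the luciferase livers, and the groups did not overlap (limma adjusted p = 0.419). Without luciferase array 3 Psmd10 was at 0.25.

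The tissue-restricted subunits and Psmc3ip were dim. Psmb11, the catalytic subunit of thymic epithelium, read 106.4, 22.6 and 92.5 in the Nfkbiz livers, against 37.8, 42.3 and 86.0 in the luciferase livers, and Psma8, the alpha subunit of germ cells, lay between 53.4 and 118.5 on all arrays, where the filter stood at 47.4. Psmc3ip lay between 45.1 and 107.5 on all arrays. Psme3ip1 was brighter, between 941.9 and 1105, with a difference of -0.07 (95% interval -0.37 to 0.22).

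The constitutive core was highest on 1 array. Nfkbiz array 2 was the highest of the 6 for 14 of the 14 core genes, for 10 of the 17 genes of the 19S particle and for 29 of all 46, whereas it was the highest for 16.5% of all tested genes. The median log2 deviation of the core from the luciferase mean was 0.14, 0.45 and 0.17 on Nfkbiz arrays 1, 2 and 3, against -0.01, 0.05 and -0.04 on the luciferase arrays. The core medians of the Nfkbiz arrays thus all lay above those of the luciferase arrays, array 2 farthest. For the 19S particle the medians were -0.003, 0.22 and 0.02 on the Nfkbiz arrays, against 0.03, 0.06 and -0.11 on the luciferase arrays, and they overlapped. For the immunoproteasome they were 0.31, 0.13 and 0.50 on the Nfkbiz arrays, against 0.02, -0.10 and 0.08 on the luciferase arrays, so that here array 2 was the lowest of its group. The median over all tested genes stayed between -0.05 and 0.05 on every array. Without Nfkbiz array 2 the median difference was 0.17 in the core, with 11 of 14 positive, 0.01 in the 19S particle, 0.41 in the immunoproteasome and 0.06 over the 46 genes. Without luciferase array 3 it was 0.25 in the core, 0.12 in the 19S particle, 0.34 in the immunoproteasome and 0.15 over the 46 genes.

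**Figure D3:**
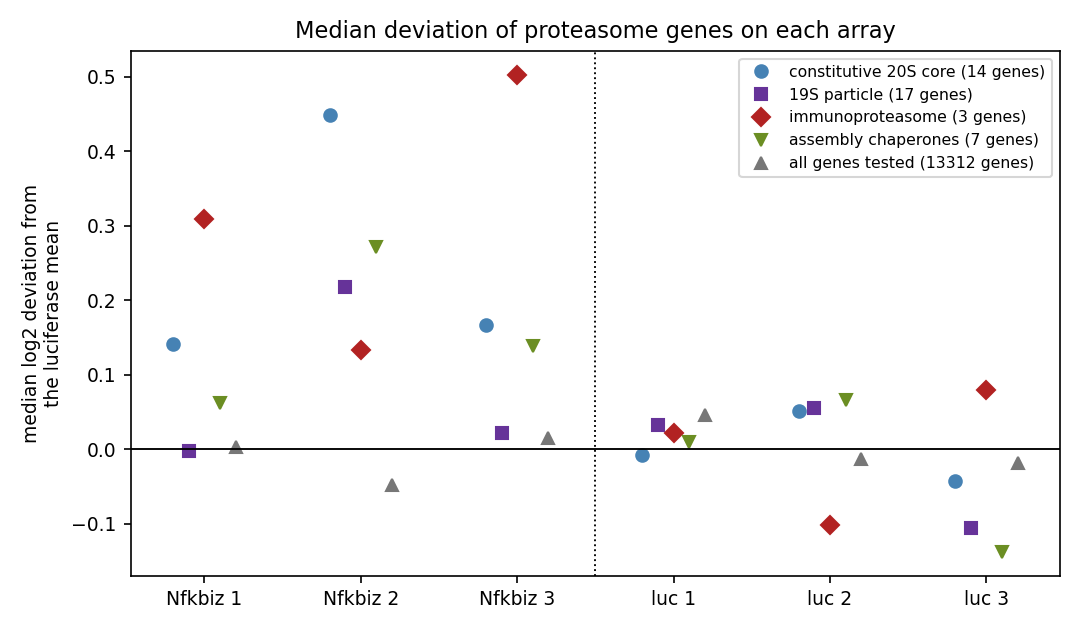
Median log2 deviation from the luciferase mean (y axis) of the genes of each part of the proteasome and of all tested genes on each array (x axis, AAV8-Nfkbiz arrays left, AAV8-luciferase arrays, luc, right). The core genes peak on Nfkbiz array 2, at 0.45, where the immunoproteasome genes are lowest of that group, at 0.13.

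Probe sets of 1 gene did not always read alike. The 48 genes had 99 probe sets, 80 of which passed the filter. In a fit over 27022 probe sets, 0 of the 80 had a limma adjusted p below 0.05, where 0.0703% of all did, and 9 were higher and 0 lower at an unadjusted p below 0.05, where 4.14% and 6.47% of all were. Of the 19 genes with several probe sets that passed, 9 had both signs. In Psma1, Psma6, Psmb1, Psmb8, Psmc2 and Psmd13 the probe sets with a negative difference were far dimmer than the brightest one. In Psmc4 and Psmd4 the signs differed between bright probe sets, and in Psme3 the differences were 0.00 and -0.03. For Psmb8 the second probe set, 1444619_x_at, was far dimmer, at 85.9, 161 and 105 in the Nfkbiz livers, against 107, 128 and 188 in the luciferase livers, a difference of -0.28 ± 0.34 (SE) with overlapping groups. For Psma6 the probe set 1416506_at read 7348, 8990 and 6561 in the Nfkbiz livers, against 5817, 6679 and 5678 in the luciferase livers (0.32 ± 0.14 SE), while the brighter 1437144_x_at gave 0.11, with luciferase array 3 below only Nfkbiz array 2. Psma5 had a probe set under the filter, 1454940_at, with 5.66, 7.70 and 11.5 in the Nfkbiz livers, against 40.1, 50.8 and 56.6 in the luciferase livers, which was not tested.

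The disagreement was largest on luciferase array 3. Among 13 proteasome genes with 2 bright probe sets, the median distance of their log2 difference from its median over arrays was 0.43 on that array and between 0.05 and 0.09 on the others. It was over 0.5 for 6 of the 13 genes there and for 0 on each other array. The signs went both ways, at 0.64 for Psma6 and 0.55 for Psmc4, against -0.97 for Psmc6 and -0.71 for Psmb3.

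**Figure D4:**
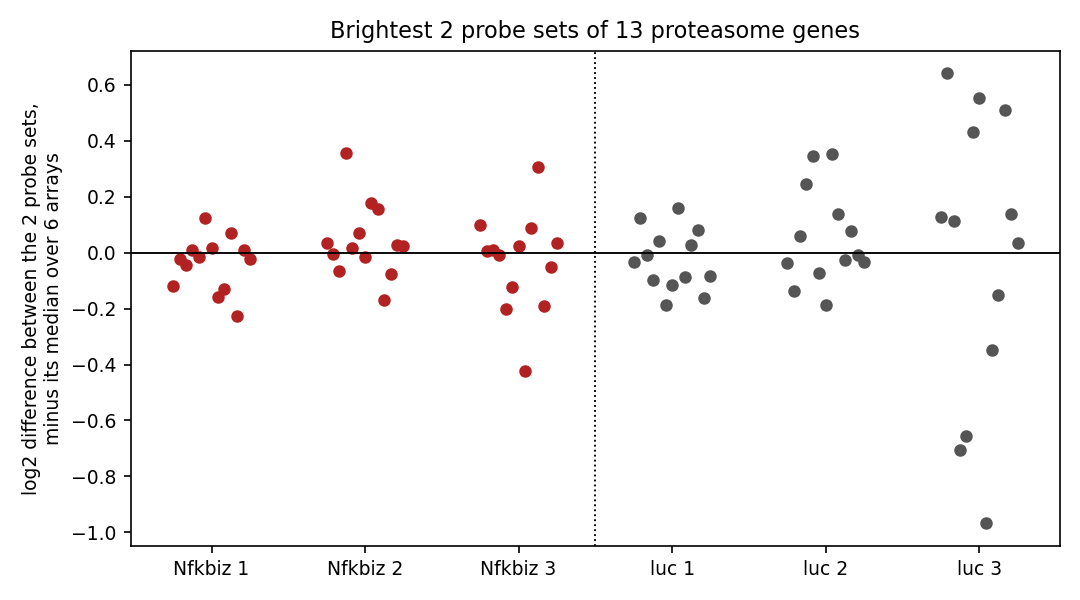
Log2 difference between the brightest 2 probe sets of each of 13 proteasome genes, minus its median over the 6 arrays (y axis), on each array (x axis, AAV8-Nfkbiz in red at the left, AAV8-luciferase, luc, in grey at the right). Points of luciferase array 3 spread from -0.97 to 0.64, wider than on any other array.

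Genes that work with the proteasome outside the naming rule showed no called change either. Of 8 tested proteasome partners, 8 had positive differences, beside 47.8% of all tested genes. The median of the 8 was 0.09 and 0 passed. Pomp, the maturation factor of the core, read 6644, 7446 and 6712 in the Nfkbiz livers, against 5830, 6158 and 6404 in the luciferase livers. Sem1, a small lid subunit, read 5426, 5358 and 5771 in the Nfkbiz livers, against 4787, 4581 and 5282 in the luciferase livers. Both were without overlap between the groups and had a difference of 0.18 ± 0.12 (SE, limma adjusted p = 0.578 for each), and the thioredoxin-like Txnl1, which binds the 19S particle, had 0.11 ± 0.12. Of 9 ubiquitin and shuttle genes, 2 had positive and 7 negative differences (median -0.10), and 0 passed. Among them the shuttle factor Ubqln4 read 582.7, 503.1 and 699.7 in the Nfkbiz livers, against 926.9, 710.7 and 1046 in the luciferase livers, all lower (-0.58 ± 0.19 SE, limma adjusted p = 0.263). The E1 enzyme Uba6 had a difference of -0.32 ± 0.21 and the segregase Vcp of -0.11 ± 0.12.

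Of 9 genes that regulate proteasome transcription, 7 had negative and 2 positive differences (median -0.15), beside 47.8% positive among all tested genes. At an unadjusted p below 0.05, 4 were lower and 0 higher, beside 7.00% lower and 5.03% higher among all tested genes. After adjustment 0 passed. The list holds both transcription factors and genes of their turnover, so its counts do not give a direction of regulation. Sel1l, part of the ER ubiquitin ligase complex that turns over Nfe2l1, read 1574, 1375 and 1577 in the Nfkbiz livers, against 3014, 2156 and 2547 in the luciferase livers (-0.76 ± 0.15 SE, limma adjusted p = 0.0997). Syvn1, the ligase of that complex, read 1182, 1180 and 1166 in the Nfkbiz livers, against 2337, 1491 and 2439 in the luciferase livers (-0.80 ± 0.18 SE, limma adjusted p = 0.158). Both were lower on every Nfkbiz array, as was Mafg, a small Maf partner of these factors (-0.65 ± 0.19 SE, limma adjusted p = 0.219). Nfe2l1 itself, looked up after these values were seen, read 1460, 1027 and 1709 in the Nfkbiz livers, against 1455, 1235 and 1951 in the luciferase livers, with overlapping groups.

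The antigen-processing and interferon-gamma genes around the immunoproteasome were mixed. Of 11 antigen-processing genes 6 had positive and 5 negative differences (median 0.02), and 0 passed. Among all tested genes 47.8% had a positive difference. Nlrc5, the transactivator of class I genes, read 381.6, 394.2 and 356.1 in the Nfkbiz livers, against 538.3, 542.9 and 526.8 in the luciferase livers, lower without overlap (-0.51 ± 0.15 SE, limma adjusted p = 0.219), while the chaperone Calr was at -0.15 ± 0.13. Of 7 tested interferon-gamma signalling genes 4 had positive differences (median 0.06) and 0 passed. Irf9 had 0.29 ± 0.14, the receptor chain Ifngr2 0.21 ± 0.13 and the kinase Jak2 -0.22 ± 0.15 (SE). The cytokine gene Ifng was below the filter, with intensities from 5.4 to 46.6 in the Nfkbiz livers, against 7.6 to 54.0 in the luciferase livers.

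Markers of leukocytes, cells that carry the immunoproteasome, had positive differences in 23 of 28 genes, of which 1 passed the test, Gzma, a granule protease of T and NK cells. The negative ones were Cd3e (-0.67), Laptm5 (-0.16), Lcp1 (-0.11), Cd8a (-0.09) and Csf1r (-0.05), and 0 of these had an unadjusted p below 0.05. For comparison, 47.8% of all tested genes had a positive difference, and 0.0676% passed the test higher and 0.158% lower. The shares at an unadjusted p below 0.05 were 5.03% higher and 7.00% lower, and 1065 of the 13312 genes were higher without overlap. Of 9 macrophage and Kupffer cell markers, 7 were higher and 0 lower at an unadjusted p below 0.05 and without overlap, with 0 passing the adjusted test, and their summed intensity ran from 41037 to 53504 in the Nfkbiz livers and from 29003 to 37868 in the luciferase livers. Of 7 T and NK cell markers Gzma rose (1.77 ± 0.28 SE, limma adjusted p = 0.0427). That call was lost under 10 of 18 alternatives, with a limma adjusted p of 0.312 without the intensity trend and of 0.0518 to 0.201 when 1 array was left out, and the difference was positive under all 18. The sums of this list ran from 1091 to 1772 in the Nfkbiz livers and from 836.5 to 968.0 in the luciferase livers. Of 5 pan-leukocyte markers, 2 were higher at an unadjusted p below 0.05, Cd52 and Coro1a, and 0 passed, with sums from 9412 to 12517 in the Nfkbiz livers and from 8245 to 10651 in the luciferase livers. Of 4 B and plasma cell markers 1 and of 3 neutrophil markers 2 were higher at an unadjusted p below 0.05, and 0 passed in either list. The B and plasma cell sums ran from 376.2 to 581.6 in the Nfkbiz livers and from 259.5 to 423.5 in the luciferase livers, and the neutrophil sums from 932.8 to 2449 in the Nfkbiz livers and from 599.1 to 1163 in the luciferase livers. Within the Nfkbiz group array 2 had the lowest pan-leukocyte and T and NK cell sums, as it had the lowest Psmb8 and Psmb9. Its macrophage and Kupffer cell sum was the highest of the group. Among the Nfkbiz arrays, the macrophage and Kupffer cell, B and plasma cell and neutrophil sums were lowest on array 3, which had the highest Psmb8 and Psmb9. The part of these cells in the Psmb8 and Psmb9 values was not tested. Hepatocyte markers had 1 of 7 past the threshold, Tat, which fell (-1.17 ± 0.16 SE, limma adjusted p = 0.0218). That call was lost under 5 of 18 alternatives, with a limma adjusted p of up to 0.312, without the intensity trend.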

How the data were processed

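Liver RNA of 6 mouse samples was measured on 1 array each. The authors deposited linear intensity values, made with MAS5 per the submitters' processing notes, which name no version. The mean of the middle 96% of intensities was between 495.4 and 496.5 on each array. The table held 45037 probe sets. The platform annotation gave 34945 of them 1 symbol and 932 several, and 9160 were not listed. All 48 proteasome genes were found by Entrez identifier in a RefSeq table (GRCm38.p6), and 0 symbols changed. Sequences are RefSeq's. The samples were grouped by their titles, and nothing says that they came from separate animals, so that p-values speak only of the spread among these arrays, which may be technical.

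The deposited intensities were taken to log2 as they were, without a pseudocount or another normalization step. Each gene was read from its probe set with the highest mean, and genes in the lowest 40% of probe sets (intensity under 47.4) were left out, leaving 13312 genes. Differences were fitted with limma 3.58.1 (R 4.3.3), using lmFit and eBayes with the variance prior following intensity, two-sided, with Benjamini-Hochberg adjustment over all genes and a threshold of 0.05. The procedure was tested on simulated data. Figures used matplotlib 3.10.9 in Python 3.11.15. The number of arrays limits the precision.

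The proteasome genes, the companion lists, the motifs and the alternatives were chosen with earlier results of these data known. Any proteasome gene could be named, with values per array for the catalytic subunits and the 12 genes with the smallest p. Of each of the 5 companion lists (partners, ubiquitin and shuttles, regulators, antigen processing, interferon-gamma signalling) the 3 genes with the smallest p were named. Nfe2l1, Tap2, Ifng and the cell type markers were named after their values were seen. Psma6, Psmc3, Psmd2, Psmb11, Psma8 and Psmc3ip were given array values after these were seen, and so was the comparison of the brightest 2 probe sets chosen. Same-numbered arrays of the groups had deviations that correlated at r = -0.06, 0.07 and -0.03 across genes, so they were not treated as pairs. Alternatives covered normalization, filter, pseudocount, choice of probe set, variance prior, array weights, a replicate block and leaving out each array.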

Additional observations from a re-analysis of the deposited data

How the results depend on the processing

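Under the 18 alternatives the number of proteasome genes past the threshold stayed at 0, as did that of proteasome probe sets where it was computed (not with the mean or the most variable probe set). The number of proteasome genes higher at an unadjusted p below 0.05, 7 here, was 3 after median centring, 4 with the mean of a gene's probe sets, 1 with the most variable probe set (32 of 46 genes tested) and 2 when the intensity trend was dropped. As shares these are 6.52%, 8.70%, 3.12% and 4.35% of the proteasome genes tested, beside 4.61%, 4.71%, 4.36% and 4.44% of all genes tested under the same alternative, so that with the most variable probe set and without the trend the share was below that of all genes. It ran from 4 to 11 when 1 array was left out: 11 without luciferase array 2, and 4 without luciferase array 1 or 3 or Nfkbiz array 1 or 2. When probe sets were averaged 2 were lower, and 0 otherwise. With 1 array left out, the median over the 46 genes lay between 0.06, without Nfkbiz array 2, and 0.22. The 30 genes past the threshold among all tested genes became 13 with the mean of probe sets, 10 with the most variable one, 0 without the trend (limma, 1350 at an unadjusted p below 0.05), 62 with array weights and 8 to 19 with 1 array left out. Array weights gave a core median of 0.19, and averaging probe sets 0.18. The immunoproteasome median was 0.07 when probe sets were averaged and 0.04 for the most variable one.

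The Psmb8 to Psmb5 difference turned to -0.21 when probe sets were averaged and to -0.56 for the most variable one, where the dim second Psmb8 probe set enters, and ran from 0.01 to 0.34 with 1 array left out. Psmb8 itself was -0.28 for the most variable probe set. Psma5 was -0.66 when probe sets were averaged, where its dim probe set enters. Psmd13 was -0.086 when averaged and -0.57 for the most variable probe set. Psmb6 ran from -0.011, without Nfkbiz array 2, to 0.277 and Psmb10 from -0.011, without luciferase array 2, to 0.079 with 1 array left out. The Psmb10 to Psmb7 difference ran from -0.41 to -0.03 and the Psmb9 to Psmb6 difference from 0.01 to 0.42. A replicate block gave 8 proteasome genes higher at an unadjusted p below 0.05 and 27 genes past the threshold in all, and changed no adjusted call among the proteasome genes. The core genes had a median SE of 0.15, beside their median difference of 0.29, so 3 arrays against 3 limit what can be called at this size.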
